A study of Mus musculus with 17 samples.

Results

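The keratin family was followed through 14 bulk RNA-seq libraries and 3 single-cell libraries of sorted mouse skin innate lymphoid cells (ILCs), which are tissue lymphocytes without rearranged antigen receptors. Members were all genes whose symbol is Krt followed by a number. Of the 55 symbols of that form, 2 were left out as pseudogenes, which left 53 members among the 54446 genes of the bulk tables. The single-cell tables listed 36 members in the skin library and 39 in each dorsal library. All cells came from C57BL/6 mice and were sorted as live, negative for lineage markers and the γδ T cell receptor, and positive for CD90. A fate-map (fm) reporter, a permanent label of cells in which its driver gene has once been active, divided 10 of the bulk libraries. Intact fate-map mice gave reporter-positive cells (fm_pos, n = 2) and reporter-negative cells (fm_neg, n = 2). Fate-map mice labelled Gata3flox, for a floxed Gata3 gene that a Cre recombinase can delete, gave the same pair of fractions (fm_pos_Gata3flox, n = 3, and fm_neg_Gata3flox, n = 3). In the remaining 4 bulk libraries, wild-type animals (WT_tamoxifen, n = 2) were set beside Gata3fl/flCreERT2 animals (Gata3KO_tamoxifen, n = 2). Both of these groups were given 3 injections of 5 mg tamoxifen, which switches on the CreERT2 recombinase, and neither was divided by a reporter. One single-cell library was from skin, with no further site in its title, and 2 were from the back, 1 taken on the day of depilation (day 0) and 1 taken on day 10. The labels do not say which cells the Cre of the Gata3flox mice acts in, nor whether replicates were separate animals. The p-values below therefore measure the spread between these libraries alone.

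Keratins are the intermediate filament proteins of epithelia. A type I and a type II keratin pair to form a filament, and the pair used marks the layer of the epithelium. Krt5 and Krt14 mark the basal layer of the epidermis and Krt1 and Krt10 the layers above it. Krt6a, Krt16 and Krt17 mark the outer root sheath and stressed epidermis, Krt25, Krt27, Krt28 and Krt71 the inner root sheath, and the Krt31 to Krt40 and Krt81 to Krt87 members the hair shaft. Lymphocytes are not known for keratin filaments; their intermediate filament is built from vimentin, whose gene Vim stood at 429 to 1070 counts per 1000000 counts (CPM) in these libraries. The 53 members lie in 2 clusters on mm10, with 27 type I genes on chromosome 11 and 25 type II genes and the type I gene Krt18 on chromosome 15.

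Total counts ran from 14450612 to 44098274 per bulk library. All 9 genes of a list for ILCs had counts in every bulk library, with a summed level of 8309 to 17940 CPM. Genes of the T cell list also had counts, at 260.8 to 1300 summed CPM. Gata3, the targeted gene, stood at 154, 235 and 307 CPM in fm_pos_Gata3flox against 164 and 303 CPM in fm_pos. In fm_neg_Gata3flox it stood at 264, 430 and 442 CPM against 381 and 504 CPM in fm_neg. In the tamoxifen set it stood at 299 and 314 CPM in Gata3KO_tamoxifen against 381 and 581 CPM in WT_tamoxifen. Counts were per whole gene, so reads from parts outside a deletion are included and these values do not check the labels. CPM values were scaled by the trimmed mean of M values (TMM), separately in the fate-map and the tamoxifen libraries.

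Keratin transcripts made up 0.0244% to 0.0469% of counts in 12 of the libraries and 0.3697% and 0.2149% in the fm_neg libraries. Of the 53 members, 49 had at least 1 count in a bulk library and 6 had counts in all 14. The 4 without a count were Krt9, a keratin of palm and sole skin, and the shaft members Krt39, Krt40 and Krt82. Among the 36 members with 20 counts or more over all libraries, 19 had over 50% of their summed CPM in a single library. The heat map of all members with counts shows the contrast between the few keratins present throughout and the many that appear in single libraries.

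**Figure D1:**
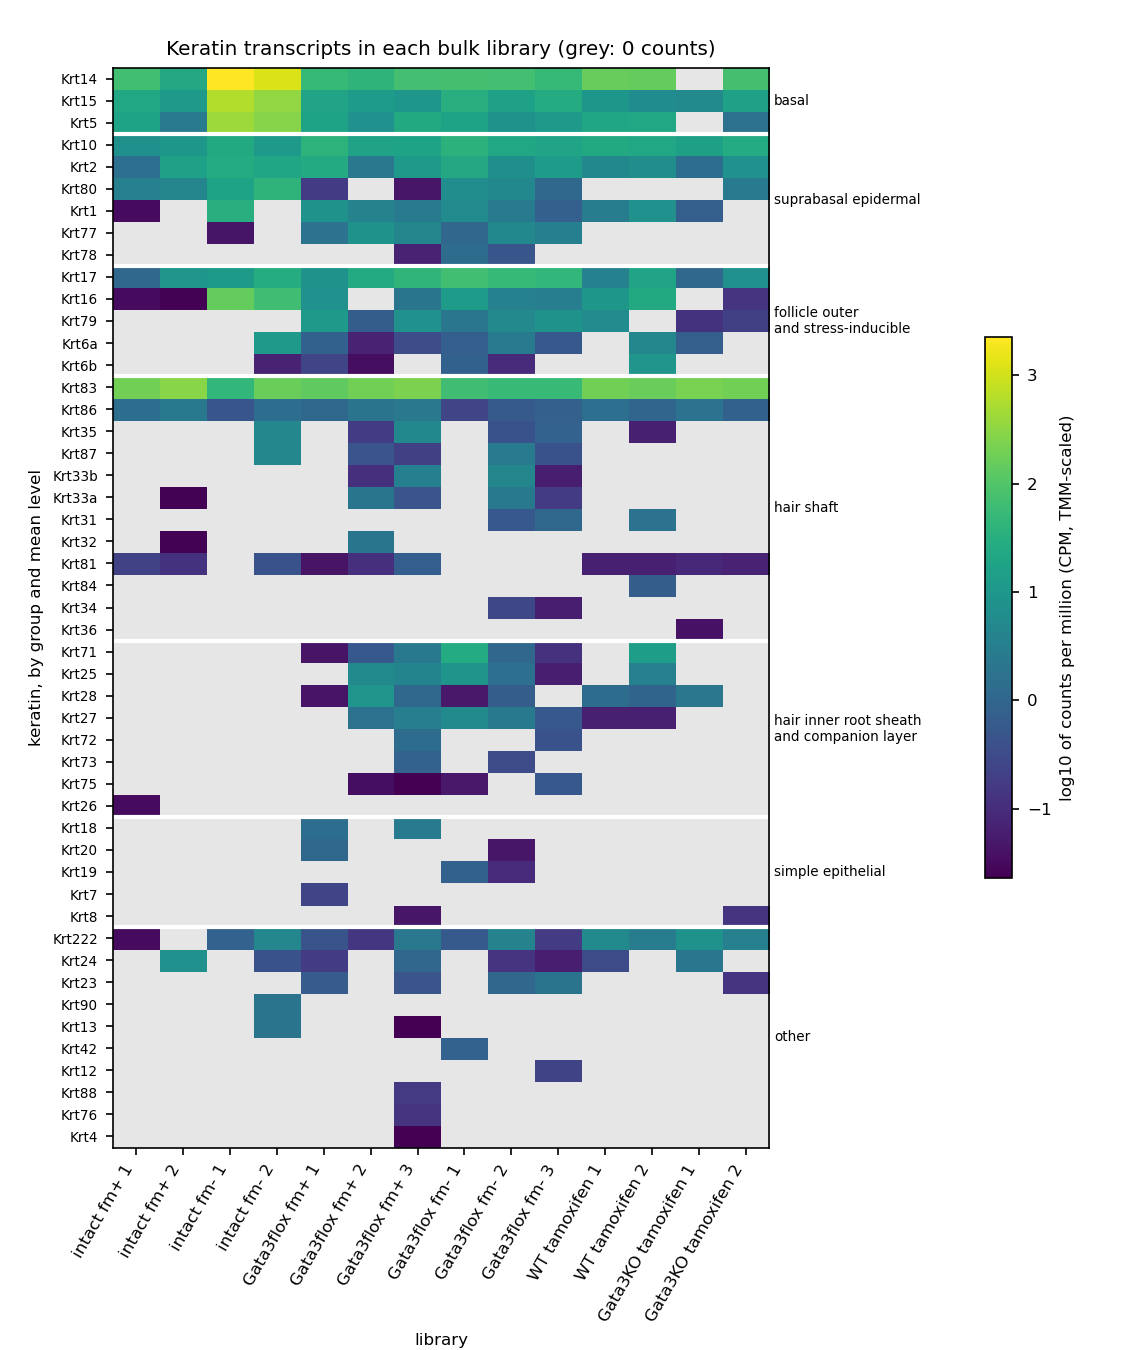
Level of each keratin with counts (rows, grouped by the site of expression and sorted by mean level) in each bulk library (columns), as log10 of TMM-scaled CPM, with grey for 0 counts. Krt83, Krt10 and Krt17 are present in all 14 libraries, Krt14 is brightest in the 2 intact fm- libraries, and the inner root sheath rows are grey in the intact libraries apart from 1 count of Krt26.

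Per kilobase of exon, the scale on which different genes can be compared, Krt83 was the leading keratin in 9 of the 14 libraries, Krt14 in 3 and Krt17 in the other 2. Krt83 led in all libraries of fm_pos, fm_pos_Gata3flox, WT_tamoxifen and Gata3KO_tamoxifen, and in none of the reporter-negative ones. The basal group, which holds Krt5, Krt14 and Krt15, took 91.8% and 84.2% of keratin counts per kilobase in the fm_neg libraries. Its share was 35.3% and 10.3% in fm_pos, 18.4% to 28.3% in fm_pos_Gata3flox and 33.4% to 37.3% in fm_neg_Gata3flox. The hair shaft group, which is almost all Krt83, took 61.6% and 79% in fm_pos, 44.4% to 60.2% in fm_pos_Gata3flox and 16.9% to 23.9% in fm_neg_Gata3flox. In fm_neg its share was 1.31% and 8.22%.

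**Figure D2:**
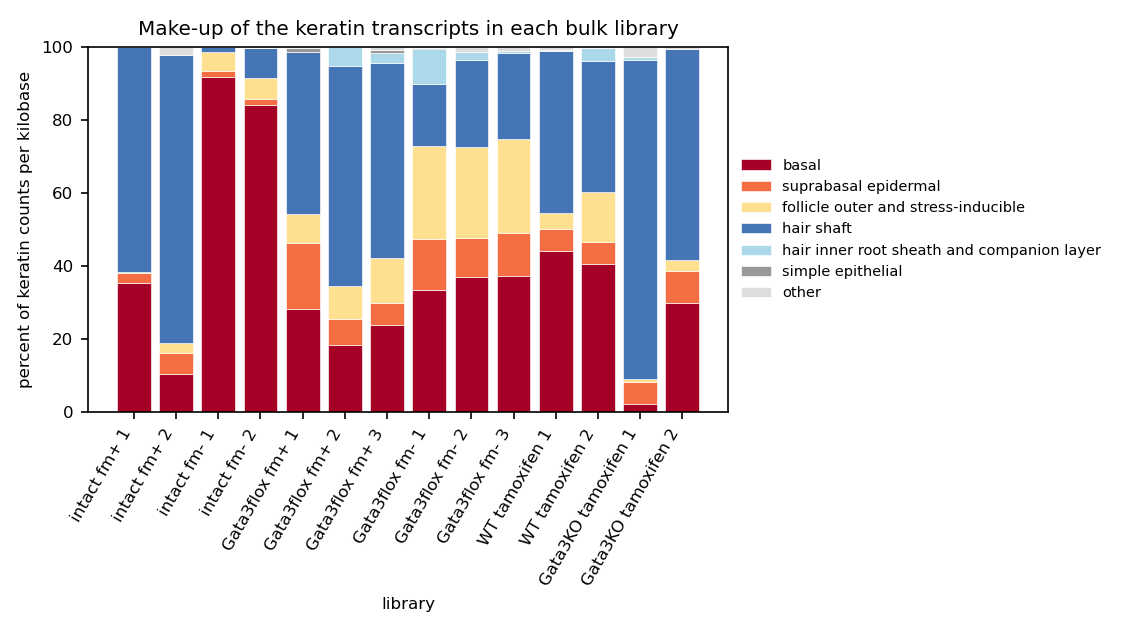
Share of keratin counts per kilobase of exon taken by each keratin group (stacked, in percent) in each bulk library. Basal keratins fill 91.8% and 84.2% of the bars of the 2 intact fm- libraries, and hair shaft keratins 61.6% and 79% of the intact fm+ bars.

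The comparison of reporter-positive with reporter-negative cells of intact mice asks how the skin ILC fractions differ. The basal keratins were lower in the reporter-positive fraction, all 3 of them and in every library. Krt14, the type I keratin of basal keratinocytes (chromosome 11, 100203162 to 100207548, mm10), stood at 69.3 and 23.5 CPM in fm_pos and at 2241 and 1161 CPM in fm_neg. Both fm_neg libraries were thus far above both fm_pos libraries, with no overlap. Its log2 difference was -5.20 ± 0.58 (SE), with an adjusted p of 0.00263 by edgeR's quasi-likelihood test. Krt15, a type I keratin of basal cells and of the hair follicle bulge, stood at 22.4 and 11.6 CPM in fm_pos against 595.5 and 352.5 CPM in fm_neg. The log2 difference was -4.80 ± 0.51 with an adjusted p of 0.00225 by the edgeR test. Krt5, the type II partner of Krt14, stood at 18.5 and 2.46 CPM against 423 and 278 CPM, a log2 difference of -5.07 ± 0.92 (adjusted p = 0.0232, edgeR). Without fm_pos replicate 1 the differences were -7.15 for Krt5 and -6.17 for Krt14, and without fm_pos replicate 2 they were -4.24 and -4.61. Krt16, a stress-inducible type I keratin, had 1 and 1 counts in fm_pos and 3293 and 972 counts in fm_neg. That ratio is 4120-fold with a 95% counting interval of 1140 to 34000, and its adjusted p by edgeR was 0.033.

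In all, 4 of the 28 keratins tested were lower in fm_pos and 0 were higher. Of all 17456 genes tested, 2.74% were called, 0.624% as higher and 2.11% as lower. The next keratin by p was Krt1 (adjusted p = 0.118 by edgeR), whose fm_neg counts were all in replicate 1. DESeq2 called 8 keratins lower and 0 higher, beside 15.8% of the genes it tested, 11.1% lower and 4.72% higher. With the 4 intact libraries fitted alone the only keratin called was Krt16, and the values of the others were a log2 difference of -5.25 for Krt14 (adjusted p = 0.131 by edgeR), -4.85 for Krt15 (adjusted p = 0.0806 by edgeR) and -5.12 for Krt5 (adjusted p = 0.246 by edgeR). The deposited file of each library carries an L number whose meaning the labels do not give; both fm_pos libraries and 1 fm_neg library share the number 2. With that number as a covariate, 2 keratins were called as lower, Krt14 and Krt15, beside 0.229% of all genes called higher and 1.2% lower. Krt5 (adjusted p = 0.0527 by edgeR) and Krt16 (adjusted p = 0.0665 by edgeR) were not. The Krt16 call was also lost without any 1 of fm_pos replicate 1, fm_pos replicate 2 and fm_neg replicate 1, at adjusted p values of 0.0893, 0.0817 and 0.0576 by edgeR, and with the replicate number as a block (adjusted p = 0.0661 by edgeR).

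**Figure D3:**
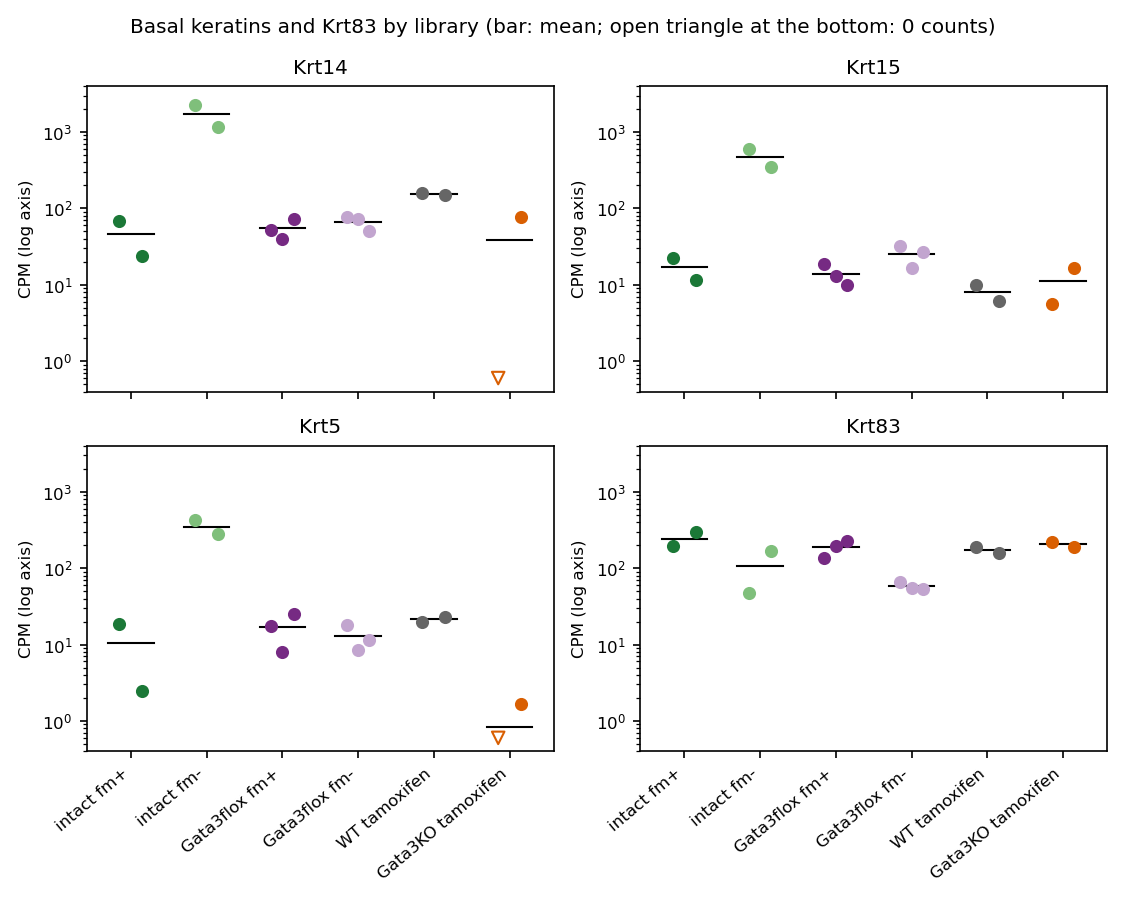
TMM-scaled CPM on a log axis of Krt14, Krt15, Krt5 and Krt83 in each bulk library (points) by group, with the group mean as a bar and an open triangle for a library with 0 counts. The 2 intact fm- libraries stand at 2241 and 1161 CPM for Krt14, above all other libraries, while Krt83 runs from 46.98 to 294.3 CPM.

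Keratinocyte adhesion genes and fibroblast genes moved with the basal keratins. Not every list did: the endothelial sums overlapped, at 8.634 and 3.236 CPM in fm_pos and 7.973 and 69.12 CPM in fm_neg. Of 6 endothelial genes tested, 1 was called by edgeR, Cldn5, as lower. The 16 keratinocyte adhesion and basement membrane genes that are not keratins summed to 409.9 and 627.0 CPM in fm_pos and to 1825 and 1066 CPM in fm_neg. Of these 16 tested genes, 6 were lower in fm_pos (Col17a1, Dsc3, Dsp, Dst, Lgals7 and Sfn) and 0 were higher. Both fm_neg libraries had counts of all 16, while each fm_pos library had 4 at 0. The 10 fibroblast genes summed to 27.7 and 180.6 CPM in fm_pos and to 7765 and 5688 CPM in fm_neg, led by Dcn, which encodes the matrix proteoglycan decorin, at 6170 and 4430 CPM in fm_neg. Markers of keratinocytes and fibroblasts thus differed between these groups as well, and the part of such cells in the keratin result was not tested. In bulk samples fewer cells of a type and less RNA per cell cannot be told apart. In the tamoxifen set, Gata3KO_tamoxifen replicate 1 had a fibroblast sum of 4028 CPM, 0 counts of Krt14 and Krt5 and 5.60 CPM of Krt15. Its keratinocyte adhesion sum was 467.6 CPM, against 577.7, 675.1 and 623.6 CPM in the other tamoxifen libraries. The sum of 16 keratinocyte cornification genes was 22.69 CPM, against 96.64, 252.1 and 130.1 CPM.

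**Figure D4:**
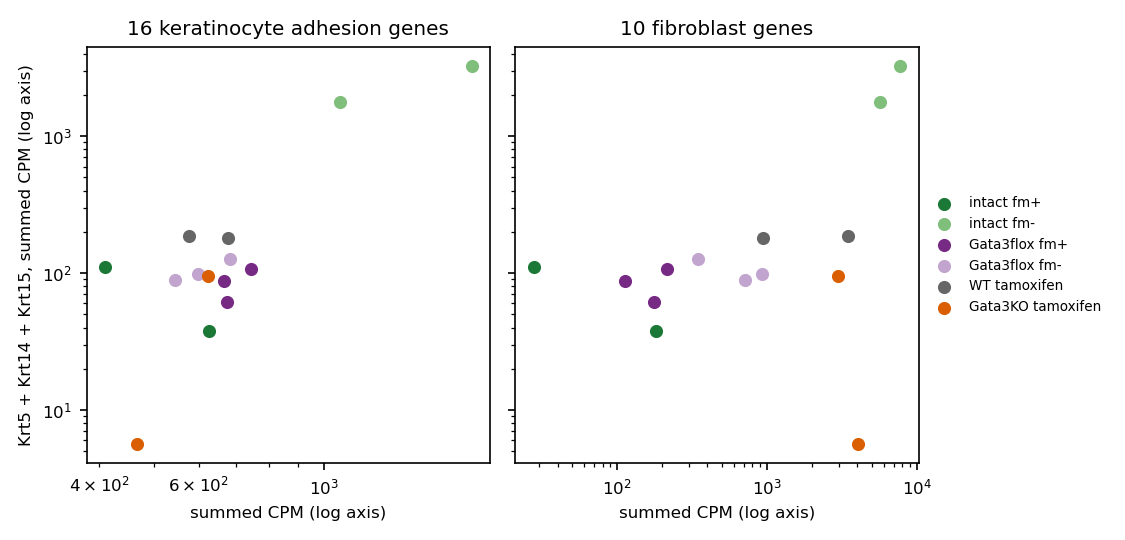
Summed CPM of Krt5, Krt14 and Krt15 (vertical, log axis) against the summed CPM of 16 non-keratin keratinocyte genes (left) or 10 fibroblast genes (right, log axes) in the 14 bulk libraries. The 2 intact fm- libraries are at the top right in both panels, and Gata3KO tamoxifen replicate 1, at 4028 CPM for the fibroblast genes, is the lowest on the vertical axis at 5.60 CPM.

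The fm_neg libraries did not hold the same keratins above the basal layer. Krt1, the type II keratin of the suprabasal epidermis, had 703 counts in fm_neg replicate 1 and 0 in replicate 2. Krt6a, an outer root sheath and wound keratin, had 0 counts in replicate 1 and 162 in replicate 2. The shaft keratins Krt35 and Krt87 had 0 counts in replicate 1 and 69 and 68 counts in replicate 2. Krt10, the type I partner of Krt1, had counts in every bulk library, at 7.30 and 10.0 CPM in fm_pos and 24.6 and 11.4 CPM in fm_neg. In fm_pos the pair was thus uneven, with 225 and 400 counts of Krt10 and 1 and 0 counts of Krt1.

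Krt17, an outer root sheath and stress keratin, was the leading keratin per kilobase in fm_neg_Gata3flox replicates 1 and 3. It stood at 69.9, 49.96 and 46.8 CPM in fm_neg_Gata3flox and at 8.53, 25.9 and 41.9 CPM in fm_pos_Gata3flox, without overlap, and at 1.10 and 9.13 CPM in fm_pos and 12.1 and 28.8 CPM in fm_neg. No comparison called it by edgeR with the filter used here. Krt2, a keratin of the upper epidermis, had counts in every library and ranged from 1.45 to 26.9 CPM. Simple epithelial keratins, those of internal and glandular epithelia, were nearly absent: Krt18 had 34 and 108 counts in fm_pos_Gata3flox replicates 1 and 3 and 0 in the other 12 libraries. Krt19 had 18 counts and Krt20 27 counts over all libraries. Of the remaining members, Krt24 had 307 of its 420 counts in fm_pos replicate 2, and Krt222 had its highest count, 201, in Gata3KO_tamoxifen replicate 1. Krt23 had 92 counts, in 5 libraries.

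The same comparison in Gata3flox-labelled mice called no basal keratin. Krt14 stood at 51.4, 40.1 and 72.5 CPM in fm_pos_Gata3flox and at 77.6, 73.2 and 50.3 CPM in fm_neg_Gata3flox, and the groups overlapped. Krt15 stood at 18.5, 13.1 and 9.82 CPM against 31.7, 16.4 and 27.2 CPM, also with overlap. Its log2 difference was -0.86 ± 0.36 (unadjusted p = 0.0385, adjusted p = 0.599, edgeR). For Krt5 the log2 difference was 0.40 ± 0.64. By edgeR 0 of 28 keratins were called, beside 0.361% of all genes tested (0.126% higher and 0.235% lower), and 5 keratins had an unadjusted p under 0.05, beside 7.79% of all genes. Of these 5, 2 had 0 counts in all intact libraries and in 1 of the 2 fractions compared, Krt18 and Krt31. Nothing is read from their p-values. DESeq2 called 2 keratins, Krt83 as higher and Krt80 as lower, beside 3.3% of the genes it tested, 1.42% higher and 1.88% lower. Krt80, a type II keratin of differentiating epithelia, had 4, 0 and 2 counts in fm_pos_Gata3flox and 127, 108 and 18 counts in fm_neg_Gata3flox. The groups did not overlap, and the log2 difference was -5.83 ± 1.18 with an adjusted p of 0.0918 by edgeR. The fibroblast sums were 112.4 to 214.4 CPM in fm_pos_Gata3flox and 346.8 to 923.8 CPM in fm_neg_Gata3flox. Other lists went different ways. The keratinocyte adhesion sums were 665.7, 674.2 and 743.3 CPM against 682.6, 597.6 and 545.3 CPM, and the groups overlapped. The median log2 difference of that list was -0.719. Its most abundant gene, Sfn, was higher in fm_pos_Gata3flox, at 348, 461 and 473 CPM against 185, 245 and 206 CPM. The melanocyte sums were lower there without overlap, at 63.22, 100.5 and 104.9 CPM against 127.0, 159.7 and 156.8 CPM. The endothelial sums were higher in fm_pos_Gata3flox, at 47.35, 36.74 and 69.55 CPM against 10.12, 9.782 and 9.896 CPM. In each of these lists 0 genes were called by edgeR.

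In the reporter-negative fraction, all 3 basal keratins were lower in Gata3flox-labelled than in intact mice. In fm_neg_Gata3flox, Krt14 was lower than in fm_neg by 4.67 on the log2 scale (log2 difference -4.67 ± 0.48, adjusted p = 0.00574, edgeR). Krt15 stood at 31.7, 16.4 and 27.2 CPM against 595.5 and 352.5 CPM, a log2 difference of -4.24 ± 0.42 (adjusted p = 0.00574, edgeR). Krt5 stood at 18.3, 8.50 and 11.6 CPM against 423 and 278 CPM, a log2 difference of -4.78 ± 0.77 (adjusted p = 0.0257, edgeR). These were 3 of 28 keratins lower and 0 higher, beside 1.33% of all genes called, 0.596% higher and 0.739% lower. DESeq2 called 10 keratins, 5 in each direction, beside 12.8% of its genes, 6.61% higher and 6.21% lower. Of the 5 called higher, 4 had 0 counts in all intact libraries (Krt25, Krt27, Krt71 and Krt79), and nothing is read from those calls. The other was Krt77, with 1 count in the intact libraries, and nothing is read from that call either. The Krt5 call was lost with the L number as a covariate (adjusted p = 0.0566 by edgeR), without fm_neg replicate 1 (0.0589) and without any of the 3 fm_neg_Gata3flox libraries (0.0943, 0.142 and 0.123). The Krt14 call was lost without fm_neg_Gata3flox replicate 2 (adjusted p = 0.0518 by edgeR), which left 1 keratin called, Krt15. The keratinocyte adhesion genes summed to 545.3 to 682.6 CPM in fm_neg_Gata3flox, below both fm_neg libraries, with 1 of 16 called, Sfn, as lower. The fibroblast genes summed to 346.8 to 923.8 CPM, against 7765 and 5688 CPM in fm_neg, and Dcn was lower by a log2 difference of -3.64 ± 0.51 (adjusted p = 0.0185, edgeR). The cornification sums overlapped, at 393.7, 115.7 and 208.2 CPM against 229.8 and 168.2 CPM, with 0 of 14 called by edgeR. Of the 16 genes listed, 8 were at 0 in each fm_neg library, so nothing is read from their median log2 difference of 1.85. Dmkn was lower, at 33.9, 23.7 and 22.0 CPM against 120 and 60.2 CPM. Krtdap was higher, at 81.6, 31.3 and 54.6 CPM against 20.9 and 17.5 CPM. The part of such cells in the keratin difference was not tested. The files of the intact fate-map libraries share a code that differs from the code of the Gata3flox ones, so genotype and that code cannot be told apart.

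The interaction tests whether the reporter difference itself changed with the Gata3flox label. It was called for 2 of the 28 keratins, both higher, beside 1.01% of all genes called, 0.825% higher and 0.183% lower. The interaction was 4.90 ± 0.67 on the log2 scale for Krt14 (adjusted p = 0.012, edgeR) and 3.94 ± 0.59 for Krt15 (adjusted p = 0.0169, edgeR). Without fm_pos replicate 1 the Krt14 value was 5.88, and without fm_pos replicate 2 it was 4.32. Genes of other cell types were called as higher in the same interaction: 3 of 16 keratinocyte adhesion genes (Col17a1, Dsc3 and Sfn), 1 of 14 cornification genes (Dsg1a), 2 of 10 fibroblast genes (Col3a1 and Dcn) and 1 of 6 endothelial genes (Cldn5). The median interaction of the fibroblast list was 6.02 and that of the adhesion list 1.97, beside 0.07 over all genes tested. Their part in the keratin interaction was not tested. Krt5 lay just outside the threshold at 5.47 ± 1.08 (adjusted p = 0.052, edgeR), and was called with DESeq2, with the relative log expression (RLE) size factors, with either other filter on low counts and without either fm_pos library. DESeq2 called 5 keratins in the interaction, all higher, beside 9.2% of its genes, 6.69% higher and 2.51% lower. Without fm_neg_Gata3flox replicate 3 the Krt15 call was lost (adjusted p = 0.0514 by edgeR) and Krt14 was the 1 keratin called.

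Krt83, a type II keratin of the hair shaft, had counts in every library (chromosome 15, 101485130 to 101491512, mm10). It stood at 192.9 and 294.3 CPM in fm_pos and at 46.98 and 168.1 CPM in fm_neg, so both positive libraries were above both negative ones. In Gata3flox mice it stood at 136.8, 197.7 and 229.5 CPM in the reporter-positive fraction and at 65.3, 54.2 and 53.7 CPM in the negative fraction, again without overlap. The log2 difference between fractions was 1.18 ± 0.49 in intact mice (adjusted p = 0.227, edgeR) and 1.70 ± 0.41 in Gata3flox mice (adjusted p = 0.165, edgeR), and neither passed the threshold. In intact mice the value was 0.54 without fm_neg replicate 1 and 2.38 without fm_neg replicate 2. In intact mice it passed with no filter on low counts (adjusted p = 0.0161, edgeR) and without fm_neg replicate 2 (adjusted p = 0.0168, edgeR), the negative library that stood nearest to the positive ones. In Gata3flox mice it passed with DESeq2 (adjusted p = 0.00482), with no filter (adjusted p = 3.07e-05, edgeR) and with these 2 groups fitted alone (adjusted p = 0.0104, edgeR). The difference between the reporter contrasts, an interaction of 0.52 ± 0.63, was not called (adjusted p = 0.825, edgeR) and took the opposite sign without fm_neg replicate 2.

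Krt83 has near copies beside it on chromosome 15, so its identity rests on where they differ. Over the coding sequence Krt81 was 93.08% and Krt86 91.08% identical to Krt83 in an alignment, and 19.08% and 23.85% of their 50-base stretches occur in Krt83 unchanged. The stretches below are the 60 coding bases of Krt83 in which Krt86 differs most, with the aligned bases of both neighbours, from the GENCODE M21 transcripts on mm10. They are shown because reads across them tell the 3 genes apart; capitals mark bases that differ from Krt83, which are 22 in Krt86 and 14 in Krt81.
Krt83, chr15:101485439-101485498, minus strand: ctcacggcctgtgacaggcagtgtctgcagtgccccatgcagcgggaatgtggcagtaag
Krt86, chr15:101479431-101479490, plus strand: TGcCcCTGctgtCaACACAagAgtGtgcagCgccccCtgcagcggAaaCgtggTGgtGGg
Krt81, chr15:101459459-101459518, minus strand: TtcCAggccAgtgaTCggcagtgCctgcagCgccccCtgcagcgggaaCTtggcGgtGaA
Among these copies the deposited counts were nearly all Krt83. Krt86 had counts in all 14 libraries, from 5 to 98, equal to 0.387% to 1.45% of the Krt83 counts of the same library. Krt81 had 0 to 31 counts. The levels of Krt86, Krt81 and Krt87, which also shares 50-base stretches with Krt83 (14.14% of its own), are uncertain, since reads from the shared stretches could be split between the copies.

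Type I partners of Krt83 were scarce. The 9 type I shaft keratins, Krt31 to Krt40, had 2 counts or fewer in all in 8 of the 14 libraries. In fm_pos they had 0 and 2 counts against 5944 and 11731 counts of Krt83. The highest sums were 375 counts in fm_pos_Gata3flox replicate 3 and 172 in fm_neg_Gata3flox replicate 2. The keratin-associated proteins, which bind keratins in the hair cortex and are encoded by Krtap genes, were at 0 in 56 to 58 of their 58 genes in the intact libraries. Their sum was highest at 18.2 CPM, in the fm_pos_Gata3flox library that also had the most type I shaft counts.

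Many keratins, of the follicle and of other sites, had no counts in the intact libraries and some in Gata3flox-labelled ones. There were 23 members with 0 counts in the 4 intact libraries, over 105984004 counts in all, and counts in at least 1 of the 6 Gata3flox libraries, over 154811220 counts. Of these 23, 7 were of the inner root sheath and companion layer group, all of it but Krt26, and 3 were shaft members. Every simple epithelial member was among the 23 as well. Only 2 of the 23 had counts in all 6 Gata3flox libraries, Krt71 and Krt79. For scale, 1098 of the 17456 tested genes (6.29%) had 0 counts in the intact libraries and counts in a Gata3flox one, as did 10 of the 28 tested keratins. Such a gene passes the filter only through the Gata3flox libraries, so nothing is read from that share. Krt79, a keratin of the upper follicle and sebaceous duct, had 268, 19 and 337 counts in fm_pos_Gata3flox and 42, 110 and 140 in fm_neg_Gata3flox. Against the limit that 0 counts allow (3 counts over a group) it was at least 156-fold higher than in fm_pos and at least 61.2-fold higher than in fm_neg. Its levels were spread over the libraries, from 0.684 to 11.4 CPM. Krt71, a type II inner root sheath keratin, had 1, 15 and 105 counts in the positive and 528, 22 and 2 counts in the negative libraries. Krt25, a type I inner root sheath keratin, had 0, 151 and 174 counts and 178, 33 and 1 counts. Krt28, another, had 1, 251 and 46 counts and 1, 15 and 0 counts. The library that was highest thus changed from gene to gene within a group.

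Against fm_pos, fm_pos_Gata3flox had 0 keratins called by edgeR, beside 1.52% of all genes called (1.11% higher and 0.418% lower), and 12 keratins with an unadjusted p under 0.05, beside 19.1% of all genes. Of these 12, 5 had 0 counts in all intact libraries, and nothing is read from their p-values. Just outside the threshold was Krt80 (lower, adjusted p = 0.0522, edgeR). Krt77, a type II keratin of the epidermis and sweat ducts, had 0 and 0 counts in fm_pos against 44, 239 and 185 in fm_pos_Gata3flox. Against the limit that 0 counts allow it was at least 117-fold higher. Krt77 had 1 count over the 4 intact libraries and passed the filter only through the Gata3flox ones. Nothing is read from its p-value either. Krt80 had 108 and 173 counts in fm_pos against 4, 0 and 2. DESeq2 called 10 keratins higher and 1 lower, beside 14% of the genes it tested, 9.94% higher and 4.07% lower, and 5 of the 10 had 0 counts in all intact libraries (Krt25, Krt27, Krt28, Krt71 and Krt79). With no filter edgeR called 5 keratins higher and 1 lower, beside 2.48% and 1.08% of its genes. Krt83 differed by -0.37 ± 0.44 on the log2 scale (adjusted p = 0.699 by edgeR), from 192.9 and 294.3 CPM to 136.8, 197.7 and 229.5 CPM. Members with counts numbered 13 to 19 per intact library and 24 to 36 per Gata3flox library. The matching numbers over all genes are not given here, so nothing is read from that difference. Cornification genes of keratinocytes summed to 37.2 and 99.5 CPM in fm_pos and to 106.1 to 150.7 CPM in fm_pos_Gata3flox, and 2 of the 14 tested were higher there, Cnfn and Dsg1a. The part of such cells in the keratin counts was not tested.

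In the tamoxifen set, 0 of 13 keratins were called by edgeR, which called 0% of its 13272 genes, and 1 keratin had an unadjusted p under 0.05, beside 6.89% of all genes. DESeq2 called 1 keratin, Krt16, as lower, beside 1.68% of its genes, 0.575% higher and 1.1% lower. Krt16 had 160 and 390 counts in WT_tamoxifen and 0 and 2 in Gata3KO_tamoxifen, a ratio of 337 (95% counting interval 92.9 to 2790). Its unadjusted p by edgeR was 0.00454 and its adjusted p by edgeR was 0.585. Krt14 stood at 157.0 and 151.3 CPM in WT_tamoxifen and at 0 and 76.4 CPM in Gata3KO_tamoxifen. Krt5 stood at 19.97 and 23 CPM against 0 and 1.65 CPM. The library with 0 counts of both, replicate 1, had 24576339 counts in all and 135 counts of Krt15. The median log2 difference was -1.11 for the keratinocyte adhesion list, -1.01 for the cornification list and 0.18 for the fibroblast list. Over all genes tested it was -0.02. The part of such cells in the keratin values was not tested. Krt83 stood at 191.5 and 159.3 CPM against 222.4 and 191.8 CPM, a log2 difference of 0.24 ± 0.22 (adjusted p = 1.0 by edgeR). Krt10 stood at 24.2 and 22.1 CPM against 15.6 and 27.0 CPM, and the groups overlapped. Of the inner root sheath keratins, Krt71 and Krt25 had 216 and 56 counts in WT_tamoxifen replicate 2 and 0 in the other 3 libraries, whereas Krt28 had 53 and 0 counts in Gata3KO_tamoxifen against 21 and 15 in WT_tamoxifen.

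The single-cell libraries show which cells held the transcripts, within their depth. Cells with at least 200 genes were kept, 4441 of 4444 in skin, 564 of 564 at day 0 and 454 of 454 at day 10. Their median numbers of unique molecular identifiers (UMIs) were 2260, 2001 and 1826. The skin library shared 4 cell labels with the day 0 library and 0 with the day 10 library, and the dorsal libraries shared 0. Fibroblast lists were nearly empty here: 0 skin cells, 1 day 0 cell and 0 day 10 cells had UMIs of 3 or more of the 10 genes.

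Krt83 was the leading keratin in each single-cell library and was spread over many cells. It had 463 UMIs in 333 skin cells, 44 in 39 cells at day 0 and 42 in 31 cells at day 10, with at most 5 UMIs in a cell. That was 67.7%, 83% and 68.9% of all keratin UMIs. The cells with a Krt83 UMI were 7.5% of skin cells (exact 95% interval 6.74 to 8.31%), 6.91% at day 0 (4.96 to 9.33%) and 6.83% at day 10 (4.69 to 9.55%). None of the type I shaft keratins listed, 3 in skin and 2 in each dorsal library, had a UMI. These intervals cover counting error only, and UMIs of RNA released by other cells are not separated from a cell's own. Cells with UMIs of at least 3 T cell list genes, another lymphocyte type, had a share of 11.4% (12 of 105, interval 6.05 to 19.1%) at a median of 2563 UMIs, against 7.4% of the other skin cells at 2249 UMIs. With each cell thinned to 1000 UMIs the order turned, to 1.9% against 3.67%, so no order is read from these shares. No cell type known to lack Krt83 was present in number to set a background.

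The level of Krt83 was also set beside genes of ILC types, which were chosen after their values were seen, so the differences below are descriptions. In skin, cells with a UMI of Ccr6, a chemokine receptor of type 3 ILCs and related cells, held 61.0 Krt83 UMIs per 1000000 UMIs (95% Poisson interval 51.0 to 72.5), and cells without one 39.3 (35.2 to 43.8). Cells with a UMI of Il1rl1, the interleukin-33 receptor of type 2 ILCs, held 22.3 (15.1 to 31.9) against 46.7 (42.4 to 51.3) in the others. For Tcf7, a transcription factor of early and memory-like lymphocytes, the values were 56.8 (50.4 to 63.9) and 32.1 (27.6 to 37.2). Thy1 and Gata3 also divided the skin cells without overlap. The values were 47.3 (42.7 to 52.3) with a Thy1 UMI and 32.7 (26.2 to 40.3) without. With a Gata3 UMI they were 41.0 (36.9 to 45.4) and without one 56.7 (46.2 to 68.8), at shares of cells with Krt83 of 7.58% and 7.23%. With each cell thinned to 1000 UMIs the shares of cells with Krt83 were 5.30% and 3.25% for Ccr6, 1.53% and 3.89% for Il1rl1, and 5.00% and 2.64% for Tcf7. In both dorsal libraries the intervals with and without each of Ccr6, Il1rl1 and Tcf7 overlapped. Each is 1 library, so the intervals carry no error between animals.

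**Figure D5:**
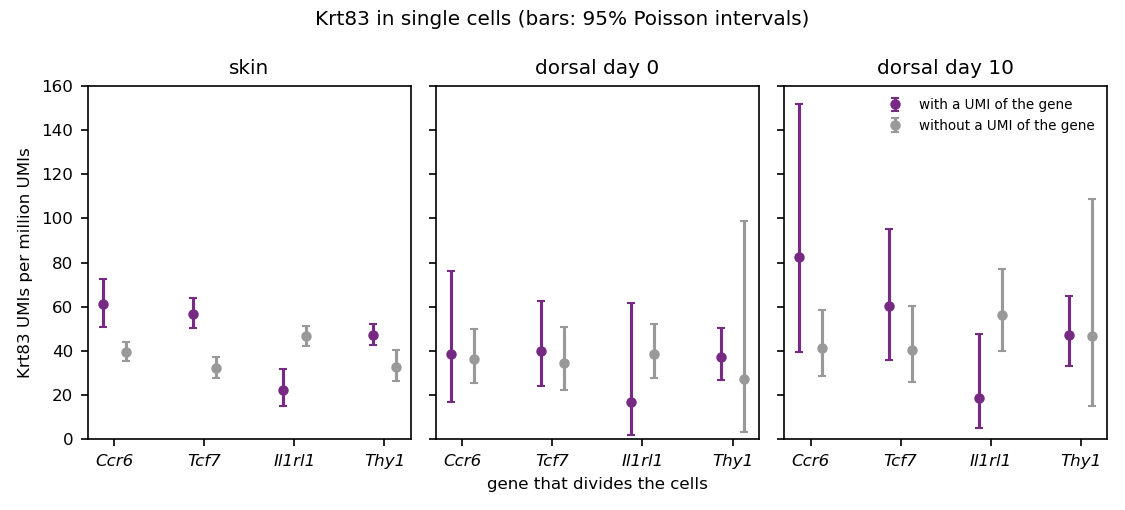
Krt83 UMIs per 1000000 UMIs, with 95% Poisson intervals, in cells with (purple) and without (grey) a UMI of Ccr6, Tcf7, Il1rl1 or Thy1, in the 3 single-cell libraries. In skin the intervals with and without Il1rl1, 15.1 to 31.9 and 42.4 to 51.3, do not overlap.

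The basal keratins of the skin library lay almost wholly in 1 cell. Of 45 Krt5 UMIs, 42 were in it, as were 40 of 42 Krt14 UMIs and 5 of 7 Krt15 UMIs. The cell had 7163 UMIs, 97 of them from keratins, UMIs of 16 of the 30 non-keratin keratinocyte genes listed, and 0 UMIs of Ptprc, which encodes the pan-leukocyte protein CD45, and of Thy1, which encodes CD90. It held 0 UMIs of Krt83. No other kept cell of the 3 libraries had UMIs of more than 5 keratinocyte genes. The class of cells with at least 3 of them held 145 skin cells, 88.3% with a Ptprc UMI, so it is not a class of keratinocytes. It held 87 of the 94 basal keratin UMIs and 20 of the 463 Krt83 UMIs. The dorsal libraries had 2 basal keratin UMIs each.

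Among the others, Krt80 had 43 UMIs in 26 skin cells and Krt10 had 31 UMIs in 31 skin cells, 1 in each. Krt222, a short keratin-like gene of type I, had 12 UMIs in skin, 2 at day 0 and 8 at day 10. The 5 outer root sheath and stress keratins together had 13 UMIs in skin, where 4 of them were listed, 0 at day 0 and 2 at day 10. Depilation starts a new hair cycle, and the dorsal libraries allow day 10 to be set beside day 0, with 1 library a day and no test. Krt83 stood at 36.5 UMIs per 1000000 at day 0 (26.5 to 49.0) and at 47.1 at day 10 (33.9 to 63.6), a ratio of 1.29 with an interval of 0.824 to 2.01 that includes no change, and thinned to 1000 UMIs a cell the ratio was 0.797 (0.377 to 1.63). All keratins together stood at 44.0 and 68.4 UMIs per 1000000, a ratio of 1.55 (1.06 to 2.29), of which 6 UMIs at day 10 were in a single cell. Without the 5 cells with the most keratin UMIs in each library that ratio was 1.33 (0.849 to 2.09). Thinned to 1000 UMIs a cell it was 1.1 (0.593 to 2.04). Both intervals include no change.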

How the data were processed

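Per the submitters' processing notes, the authors aligned reads to mm10 with HISAT2 2.1.0 and counted them with featureCounts of Subread. The deposited bulk values are raw counts per Ensembl gene, and the deposited single-cell values are raw UMI counts per gene and cell. The single-cell platform and strandedness of counting are not given in the sources used here. The driver of the fate-map reporter is not reported here. Members, keratin groups and marker lists were chosen with earlier results of these data known. Symbols were matched for 54409 of the 54446 Ensembl identifiers, and all 53 members matched GENCODE M21 positions.

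Counts were tested with edgeR 4.0.16 (filterByExpr, TMM, quasi-likelihood) in R 4.3.3, in 1 fit of the 10 fate-map libraries (17456 genes) and 1 of the 4 tamoxifen libraries (13272 genes). Genes were called at a Benjamini-Hochberg adjusted p under 0.05 over all genes tested, and 28 and 13 keratins passed the filter. The SE after ± were worked back from the edgeR test. Each is the absolute log2 difference divided by the square root of the test's F statistic. The scripts were tested on simulated data. Alternatives were DESeq2 1.42.0, RLE factors, other filters (none, or a mean CPM of at least 5), leaving out each replicate, a replicate block, the L number as a covariate and fits of 2 groups. CPM are TMM-scaled; shares of the keratin pool use counts per kilobase of exon. Folds against 0 counts use 3 counts as the floor.

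Named genes were Krt5, Krt14, Krt15, Krt1, Krt10, keratins called, the 3 most abundant of each keratin group, those with 20 UMIs in a single-cell library, the 2 most abundant genes of each marker list, and Gata3. Other members named were chosen after their values were seen. Cells with at least 200 genes were kept; no doublet caller and no mitochondrial limit was applied. Single-cell sums carry exact Poisson intervals, shares Clopper-Pearson intervals and ratios conditional binomial intervals, all at 95%. Intervals and floors cover counting error only.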

Additional observations from a re-analysis of the deposited data

Results flagged for a closer look

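The reporter contrast of 2 basal keratins differed between Gata3flox-labelled and intact mice by the interaction test itself. For Krt14 the interaction was 4.90 on the log2 scale (adjusted p = 0.012, edgeR), from a difference of -5.20 in intact mice, with both fm_neg libraries above both fm_pos libraries. For Krt15 it was 3.94 (adjusted p = 0.0169, edgeR), from a difference of -4.80 in intact mice. In the same interaction the keratinocyte genes Col17a1, Dsc3, Sfn and Dsg1a, the fibroblast genes Col3a1 and Dcn and the endothelial gene Cldn5 were called as higher, and their part in the keratin values was not tested. Over its alternatives the adjusted p ran from 2.51e-13 to 0.0441 for Krt14 and from 3.04e-09 to 0.0514 for Krt15.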

How the results depend on the processing

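Of 73 alternative counts of keratins called, 56 lay within 1.5 times the count reported and 17 did not. For fm_pos against fm_neg DESeq2 called 8, the L number as a covariate 2, and the 2 groups alone 1. For the Gata3flox fractions no filter gave 2, DESeq2 2 and the 2 groups alone 1. For fm_pos_Gata3flox against fm_pos no filter gave 6, a mean CPM of at least 5 gave 1 and DESeq2 11, and leaving out replicates gave 0 to 1. For fm_neg_Gata3flox against fm_neg no filter gave 6, DESeq2 10 and leaving out replicates 1 to 3. The interaction gave 5 with no filter, 5 with DESeq2 and 1 to 3 with replicates left out. For the tamoxifen set DESeq2 called 1. The causes were not tested.

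Without fm_neg replicate 2 the Krt83 difference between fm_neg_Gata3flox and fm_neg took the opposite sign, at 0.30 (range with replicates left out -1.54 to 0.30), as did its interaction, at -0.67 (range -0.67 to 1.17). Of 293 alternative values for single keratins, 251 kept direction and side of the threshold, 24 passed it anew, 16 no longer passed it and these 2 turned. In single cells, thinning gave a day 10 to day 0 ratio of 0.797 for Krt83. A class of at least 2 keratinocyte genes held 22.9% of the skin Krt83 UMIs, and one of at least 5 held 0.432%.

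Replicates of equal number deviated together by correlations of -0.0176 to 0.0975, pairs across genotypes included. Between the Gata3flox fractions the values were 0.0975, 0.0169 and 0.04. In a group of 2 libraries the deviations mirror each other. The correlations therefore do not settle whether libraries of equal number came from the same animals. With a replicate block the Krt16 call was lost, and 3, 0, 0, 3, 2 and 0 keratins were called in the 6 comparisons, in the order of the report's tests of fm_pos against fm_neg, the Gata3flox fractions, fm_pos_Gata3flox against fm_pos, fm_neg_Gata3flox against fm_neg, the interaction and the tamoxifen set. A group of 2 libraries left with 1 is assumed to vary like the other groups. Depth also limits the single-cell libraries, where 3 UMIs are 0.283 per 1000000 UMIs in skin and 2.49 and 3.36 in the dorsal libraries.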
